A study of Mus musculus with 10 samples.

Results

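The 49 genes described here lie around Ssbp4 on mouse chromosome 8, out of 54343 genes in the table, and all 49 were found by symbol. They were listed by map position, with Ssbp4 itself left out, and the stretch was chosen by the higher level of Ssbp4 in MC38.T4 in these same libraries. All differences below come from that contrast and from a list drawn up with its results known, so they are given as a description of the locus, without p-values. Ssbp4 stood at 27.5, 27.7, 25.6, 31.2 and 27.8 FPKM in the MC38.T4 libraries, against 3.93, 4.42, 5.54, 5.10 and 5.22 FPKM in the MC38 libraries. FPKM counts fragments per kilobase of gene, scaled to the size of the library, so levels can be compared between genes. The question asked of the neighbours is whether they share the difference, and whether those nearest to Ssbp4 share it most.

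MC38.T4 is a subclone of the mouse tumour line MC38: MC38 cells carrying a human mesothelin plasmid (huMSLN.pcDNA3.1) were cloned (MC38.huMSLN.34), grown as tumours in C57/BL6 mice, taken back into culture and passaged, and cloned once more as a single clone with low mesothelin. MC38 is the parental line from a vendor, labelled wild type; it is called colon cancer in some labels and melanoma in others, and both lines were cultured in RPMI1640 with fetal bovine serum. Each line is represented by 5 polyA-selected RNA-seq libraries. MC38.T4 is 1 clone, so a difference from the parental population cannot be told apart from a difference of that clone, and since the labels name no separate cultures behind the 5 libraries, the spread may be technical. In bulk RNA fewer cells expressing a gene and less RNA per cell cannot be told apart. Of the 15 leukocyte markers examined, Cd14 was the only one tested, and Cd3e, Ncr1 and Adgre1 were at 0 in every library. None of 8 epithelial markers passed the filter on low values (summed FPKM 1.10 to 1.42 in MC38.T4, mostly Cdh1, and 0.057 to 0.134 in MC38). Krt19 went against the sum, at 0 in MC38.T4 and a mean of 0.0412 FPKM in MC38. Of 7 melanocyte markers Mitf alone passed (sum 1.85 to 2.07 in MC38.T4 and 1.19 to 1.52 in MC38), while Tyr was at 0 throughout. Against the sum, Pmel was lower in MC38.T4 (mean 0.178 FPKM, and 0.522 FPKM in MC38), as was Mlana (0.00648 and 0.0283 FPKM). Of 5 fibroblast markers 3 passed, with sums of 76.0 to 84.9 FPKM in MC38.T4 and 15.6 to 19.8 FPKM in MC38, led by Dcn. Pdgfrb (mean 19.2 FPKM in MC38.T4 and 0.191 FPKM in MC38) passed through MC38.T4 alone, so it had to differ. The same holds for Acta2 (2.77 and 0.0445 FPKM in MC38.T4 and MC38). Thy1 and Col1a1 did not pass: Thy1 was at 0 throughout, and Col1a1 averaged 0.175 FPKM in MC38.T4 and 0.0533 FPKM in MC38. The part of these markers in the differences below was not tested.

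Neighbouring genes on a chromosome can share a promoter region, when they are transcribed away from each other, or overlap at their ends, when they are transcribed towards each other. They also share copy number and, over longer stretches, chromatin domains and replication timing. This stretch is gene-dense and its genes have unrelated functions, from cytokine receptor signalling to RNA decay and vesicle transport. Ssbp4 encodes a single-stranded DNA-binding protein that works with the adaptor LDB1. Ssbp4 and its neighbour Isyna1 lie on opposite strands and are transcribed towards each other, and their annotated spans do not overlap in GENCODE M21.

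The promoter windows of Ssbp4, of its nearest tested neighbour Isyna1, of Fkbp8, which was added after its values were seen, and of Cope and Ddx49, adjacent genes transcribed away from each other, are shown so that the starts of the genes discussed can be read beside their levels. Each runs from 250 bases before to 50 bases after the start of the gene, 5′ to 3′ on the strand of the gene (RefSeq, GRCm38.p6, chromosome 8). Ssbp4 and Ddx49 lie on the minus strand and the others on the plus strand. Capitals mark matches, on either strand, to the GC box GGGCGG, the CCAAT box or the cAMP response element TGACGTCA.
Ssbp4: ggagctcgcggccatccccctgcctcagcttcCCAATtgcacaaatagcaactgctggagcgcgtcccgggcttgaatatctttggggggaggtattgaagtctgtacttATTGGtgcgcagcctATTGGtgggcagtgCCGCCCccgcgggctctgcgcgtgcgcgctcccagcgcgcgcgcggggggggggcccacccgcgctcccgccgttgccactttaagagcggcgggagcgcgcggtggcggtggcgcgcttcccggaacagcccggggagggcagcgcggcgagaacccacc
Isyna1: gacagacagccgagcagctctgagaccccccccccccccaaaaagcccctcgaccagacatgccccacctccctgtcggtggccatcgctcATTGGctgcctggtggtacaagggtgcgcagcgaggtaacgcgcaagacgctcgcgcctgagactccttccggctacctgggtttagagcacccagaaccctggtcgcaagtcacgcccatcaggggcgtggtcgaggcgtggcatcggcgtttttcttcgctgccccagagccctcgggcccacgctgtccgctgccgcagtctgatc
Fkbp8: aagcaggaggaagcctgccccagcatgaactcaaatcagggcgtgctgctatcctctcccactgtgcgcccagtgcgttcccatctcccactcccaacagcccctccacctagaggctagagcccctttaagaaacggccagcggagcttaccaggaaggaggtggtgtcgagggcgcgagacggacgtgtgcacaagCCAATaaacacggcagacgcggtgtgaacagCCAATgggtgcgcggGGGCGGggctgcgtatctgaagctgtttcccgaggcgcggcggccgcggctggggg
Cope: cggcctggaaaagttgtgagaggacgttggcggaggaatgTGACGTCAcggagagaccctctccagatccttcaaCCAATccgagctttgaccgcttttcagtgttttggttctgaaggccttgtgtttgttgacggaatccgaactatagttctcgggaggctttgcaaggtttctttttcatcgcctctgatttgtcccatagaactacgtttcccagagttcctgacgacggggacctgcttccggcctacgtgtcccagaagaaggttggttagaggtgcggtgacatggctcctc
Ddx49: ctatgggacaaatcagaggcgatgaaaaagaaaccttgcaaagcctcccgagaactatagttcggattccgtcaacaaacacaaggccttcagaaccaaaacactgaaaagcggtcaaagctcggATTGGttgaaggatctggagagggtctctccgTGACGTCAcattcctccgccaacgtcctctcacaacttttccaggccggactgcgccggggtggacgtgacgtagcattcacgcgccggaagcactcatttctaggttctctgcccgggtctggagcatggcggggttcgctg

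The Ssbp4 window has 70.0% G and C and a CpG ratio, observed over expected, of 0.955, and holds 1 GC box and 3 CCAAT boxes. The median CpG ratio was 0.770 over the 43 neighbours with a window in the RefSeq table, against 0.389 over 27025 windows, 1 for each gene in that table. A GC box was found in 33 of these 43 windows (76.7%), against 35.9% of all windows, and a CCAAT box in 17 (39.5%), against 37.9%. The E-box CACGTG was found in 3 (6.98%, against 7.24%), the sterol regulatory element TCACNCCAC in 1, that of Kcnn1 (2.33%, against 1.22%), and the NRF1 motif in 2 (4.65%, against 0.977%). The cAMP response element was found in the windows of Cope, Ddx49 and Tmem59l (6.98%, against 1.88%). No GC box is marked in the windows of Isyna1, Cope and Ddx49. The comparison windows come from every gene of that table, expressed here or not, while most listed genes passed the filter on low values. The shares and CpG ratios thus compare unlike sets of genes, and a trait of this stretch was not tested. These matches describe the letters in the windows, not binding.

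**Figure D1:**
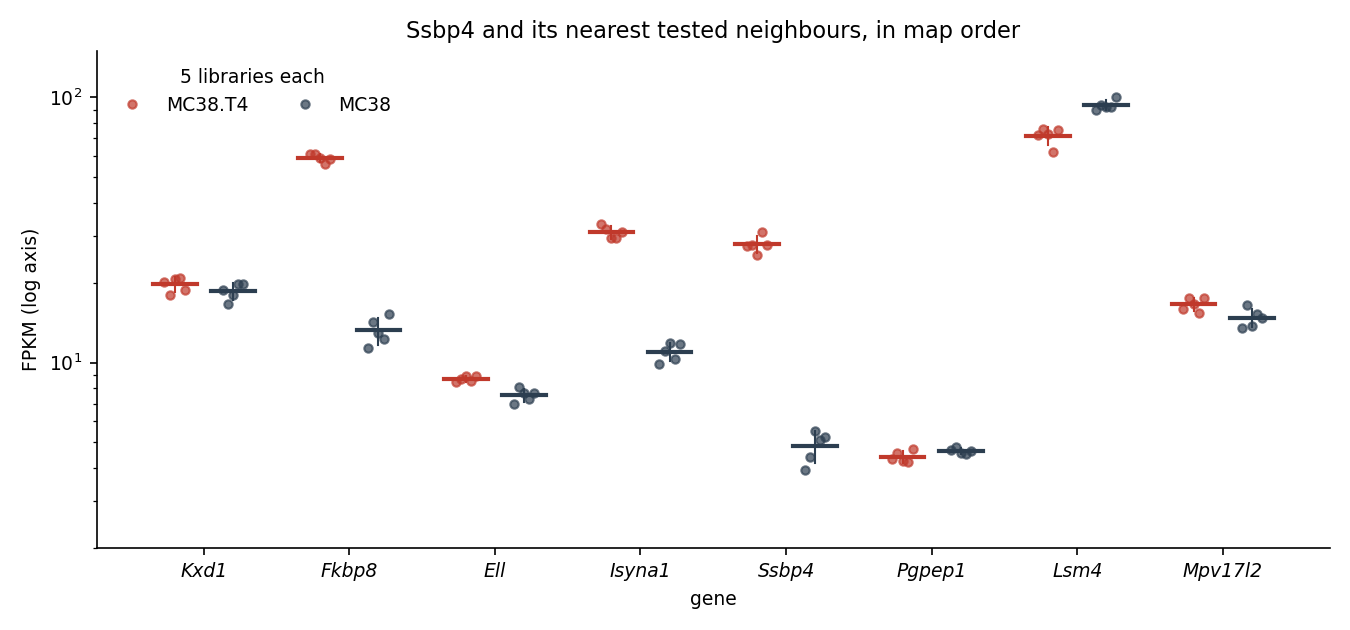
FPKM on a log axis in each library (points; MC38.T4 left, MC38 right of each pair), with the mean (bar) and SD (line) of 5 libraries, for Ssbp4 and the tested genes among its 10 nearest listed neighbours in map order. Fkbp8, Isyna1 and Ssbp4 stand well apart between the lines, while Kxd1 and Pgpep1 overlap and Lsm4 lies lower in MC38.T4.

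Of the 10 nearest listed genes, 5 on each side of Ssbp4, Isyna1 and Fkbp8, both on 1 side, were more than 2-fold higher in MC38.T4, with Ell between them nearly level. Isyna1, which makes inositol phosphate from glucose 6-phosphate and is the first gene on its side, stood at 33.4, 31.8, 29.4, 29.4 and 30.9 FPKM in MC38.T4, against 9.87, 11.1, 11.8, 10.4 and 11.7 FPKM in MC38. Every MC38.T4 library lay above every MC38 library, a 2.82-fold difference of the means (log2 difference 1.42, SE 0.05, on the log2(FPKM + 1) scale that is used for all log2 differences here). The next gene, Ell, an RNA polymerase II elongation factor, stood at 8.44, 8.67, 8.88, 8.50 and 8.93 FPKM in MC38.T4, against 6.96, 8.07, 7.67, 7.31 and 7.64 FPKM in MC38. Its groups did not overlap either, but the means differed only 1.15-fold (log2 difference 0.18, SE 0.04).

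Fkbp8, the third gene on that side, encodes an immunophilin of the mitochondrial outer membrane. It stood at 61.0, 61.1, 59.1, 56.2 and 58.4 FPKM in MC38.T4, against 11.3, 14.2, 13.0, 12.3 and 15.2 FPKM in MC38. This was a 4.48-fold difference of the means (log2 difference 2.09, SE 0.06), beside the log2 difference of 2.31 (SE 0.07) of Ssbp4. Kxd1, a subunit of the BORC complex that positions lysosomes, is next, and its groups overlapped: 20.2, 18.0, 20.7, 20.8 and 18.8 FPKM in MC38.T4, against 18.8, 16.6, 18.0, 19.7 and 19.9 FPKM in MC38 (log2 difference 0.08, SE 0.05). Tmem59l, the fifth gene, was listed at 0.0501 FPKM in MC38.T4 replicate 3 and at 0 in all other libraries.

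On the other side none of the 5 nearest listed genes differed 2-fold, although unlisted genes among them did. Jund and Rab3a lie between Lsm4 and Mpv17l2 in gene order: Jund, which encodes a subunit of AP-1, averaged 20.7 FPKM in MC38.T4 and 44.7 FPKM in MC38, and Rab3a, which encodes a small GTPase of regulated secretion and was named after its values were seen, averaged 4.51 FPKM in MC38.T4 and 1.25 FPKM in MC38. Lrrc25, the first gene there, was listed at 0.0156 FPKM in MC38.T4 replicate 4 and at 0 elsewhere. Pgpep1, which removes pyroglutamate from peptides, stood at 4.31, 4.57, 4.25, 4.22 and 4.73 FPKM in MC38.T4, against 4.66, 4.82, 4.54, 4.52 and 4.62 FPKM in MC38, and its groups overlapped (log2 difference -0.06, SE 0.04). Lsm4, a component of the Lsm rings that bind U6 RNA and decaying mRNA, went the other way from Ssbp4. It stood at 72.2, 75.8, 73.0, 62.5 and 75.1 FPKM in MC38.T4, against 89.9, 93.9, 92.1, 91.9 and 101 FPKM in MC38, with no overlap (log2 difference -0.38, SE 0.05). Pde4c, a cAMP phosphodiesterase gene, was at most 0.0189 FPKM in any library. Mpv17l2, which supports mitochondrial ribosomes, stood at 15.9, 17.5, 16.6, 15.4 and 17.5 FPKM in MC38.T4, against 13.6, 16.5, 13.8, 15.2 and 14.7 FPKM in MC38, so that the groups overlapped (log2 difference 0.16, SE 0.05).

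The listed genes as a whole went both ways, with more higher than lower in MC38.T4. A gene was tested where its FPKM reached 1 in at least 5 of the 10 libraries, which 39 of the 49 did, and was called where the limma fit over all 11110 tested genes gave an adjusted p under 0.05. Of these 39 genes 25 (64.1%) were called higher in MC38.T4, where 43.1% of all tested genes were. Another 8 (20.5%) were called lower, against 42.9% of all tested genes, and 6 were not called. The 33 called genes are 84.6% of the 39, against 86.0% of all tested genes. A called difference of at least 1 on the log2 scale was found in the higher direction for 10 (25.6%, against 10.0%) and in the lower direction for 2 (against 7.14% of all tested genes). The groups did not overlap for 31 of the 39 (79.5%, against 77.4%).

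Il12rb1, Jak3 and Ankle1 passed the filter through their MC38.T4 libraries alone, so they had to differ. Without them 22 of 36 (61.1%) were called higher and 8 (22.2%) lower. A called difference of at least 1 on the log2 scale was left for 8 (22.2%) in the higher direction and 2 in the lower. The groups did not overlap for 28 of the 36 (77.8%). The shares of all tested genes given above still include 347 genes that passed through MC38.T4 alone and 236 that passed through MC38 alone. The median log2 difference was 0.36 over the 39 tested genes, 0.36 over those 36, 0.10 over the 531 tested genes of chromosome 8 outside the stretch, and 0.00077 over all tested genes. MC38 replicate 1 was the lowest MC38 library for 18 of the 39 genes, and MC38.T4 replicates 3 and 4 were the lowest of their line for 14 each. The counts of genes called higher and lower stayed at 25 and 8 without any of these 3 libraries.

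**Figure D2:**
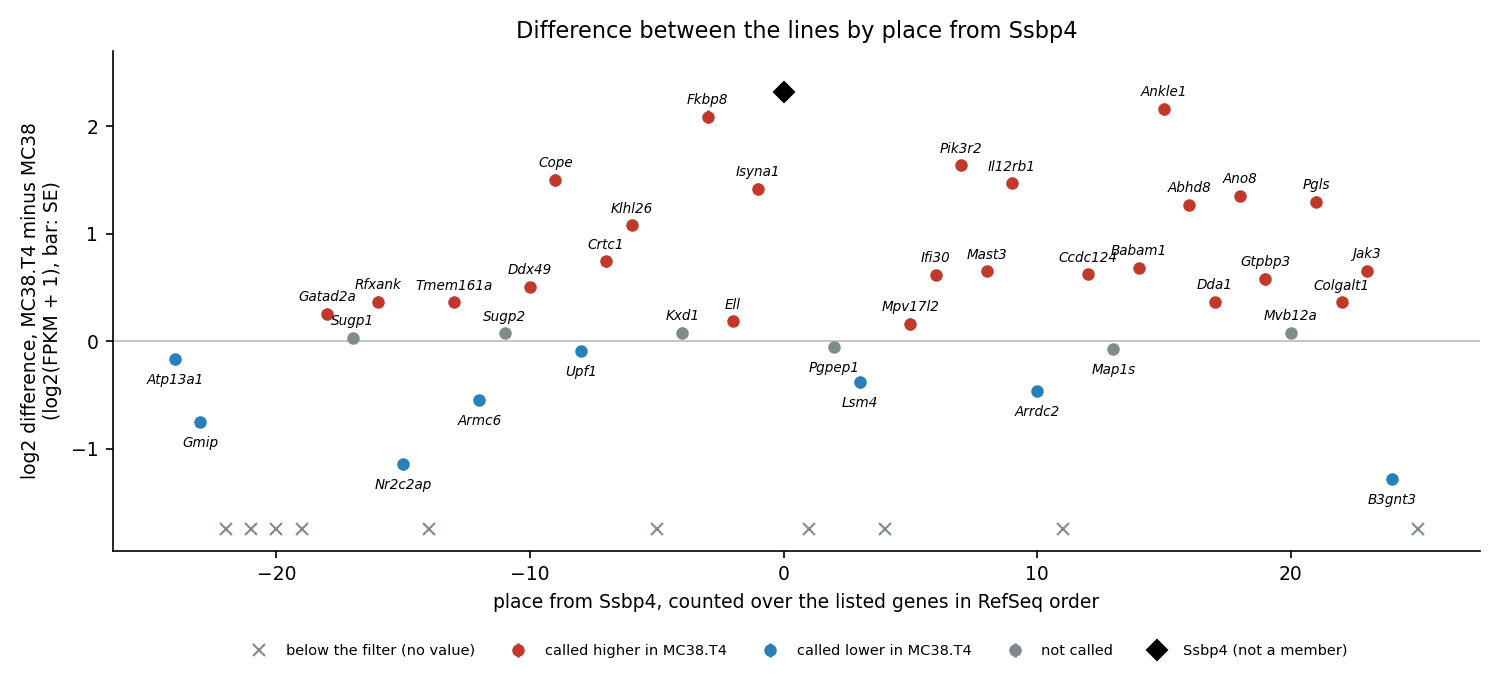
Log2 difference, MC38.T4 minus MC38 (log2(FPKM + 1); bars are the SE, within the points for most genes), of each tested gene against its place from Ssbp4 in RefSeq order; negative places are on the Isyna1 side. Genes with differences above 1 (Fkbp8, Cope, Pik3r2, Ankle1) are scattered among genes near 0 on both sides.

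The differences did not decline steadily with distance from Ssbp4. Places were counted over the listed genes in the RefSeq order, which departs from the approximate order of the list. Over the 39 tested genes Spearman's rank correlation between the log2 difference and the number of places from Ssbp4 was -0.191, and between its size and the places it was 0.0011. On the Isyna1 side the correlation was -0.589 over 18 genes in RefSeq order and -0.668 in the order of the list. The near end, out to Ddx49, holds Isyna1, Fkbp8, Klhl26, Crtc1, Cope and Ddx49, with log2 differences from 0.50 to 2.09. It also holds Ell, Kxd1 and Upf1, whose log2 differences were 0.18, 0.08 and -0.09. The far end holds Atp13a1 and Gmip, both lower, but also Gatad2a, which was called higher. On the Lrrc25 side it was 0.068 over 21 genes in RefSeq order and 0.374 in the order of the list, so the value there depends on the order used. With the size of the difference in place of its sign the correlations were -0.286 and 0.209 on the Isyna1 and Lrrc25 sides. These coefficients describe genes of the same 10 libraries that may share regulation, so no p is given. The median log2 difference was 0.16 over the 7 tested genes of the 10 nearest, and 0.44 over the other 32 tested genes. Il12rb1, Jak3 and Ankle1, which had to differ because of the filter, are all among those 32. They also enter the correlations over the 39 genes and over the Lrrc25 side, and none of these values was calculated without them.

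**Figure D3:**
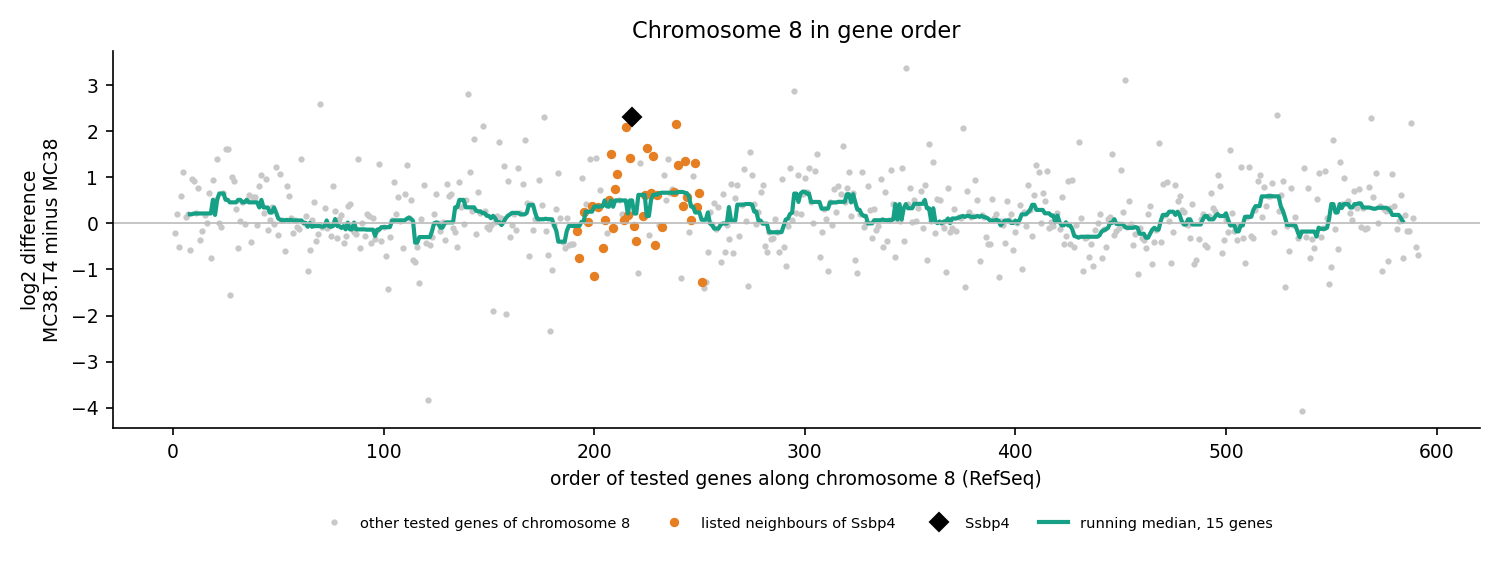
Log2 difference, MC38.T4 minus MC38, of 591 tested genes of chromosome 8 in RefSeq gene order, with the listed genes in orange, Ssbp4 as a diamond and the running median over 15 genes as a line. The running median is 0.50 at Ssbp4, in a window that includes Ssbp4 itself, and reaches a higher value, 0.69, elsewhere on the chromosome.

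Beyond the list, the pattern of the stretch can be followed in gene order. The running median of the log2 difference over 15 tested genes was 0.50 at Ssbp4, highest within the stretch at Abhd8 (0.68) and lowest within it at Atp13a1 (-0.06). The window at Ssbp4 includes Ssbp4 itself, by whose difference the stretch was chosen, and no value without Ssbp4 was calculated. The highest value on the chromosome was 0.69, at Ddx39a outside the stretch, and the lowest -0.42, at Leprotl1. The next 25 tested genes beyond the stretch had median log2 differences of -0.05 on the Isyna1 side and 0.06 on the Lrrc25 side. Between the first and last listed gene lie 20 further tested genes that the list leaves out (median log2 difference 0.59). Of these, 14 (70%) were called higher and 5 (25%) lower, against 43.1% and 42.9% of all tested genes. For the 531 tested genes of chromosome 8 outside the stretch these shares were 49.5% and 34.1%. Hapln4 and Slc25a42 passed the filter through their MC38.T4 libraries alone, so they had to differ. Without them 12 of 18 (66.7%) were called higher and 5 (27.8%) lower (median 0.50). The largest differences among the 20 unlisted genes were those of Borcs8 (8.52 and 2.58 FPKM), Hapln4 (2.36 and 0.271 FPKM) and Use1 (52.8 and 19.5 FPKM). All of these were higher in MC38.T4, each given with the MC38.T4 mean first and the MC38 mean after it. Mrpl34 (22.6 and 53.1 FPKM in MC38.T4 and MC38), Jund (20.7 and 44.7 FPKM) and 2010320M18Rik (2.98 and 3.78 FPKM) had the lowest.

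**Figure D4:**
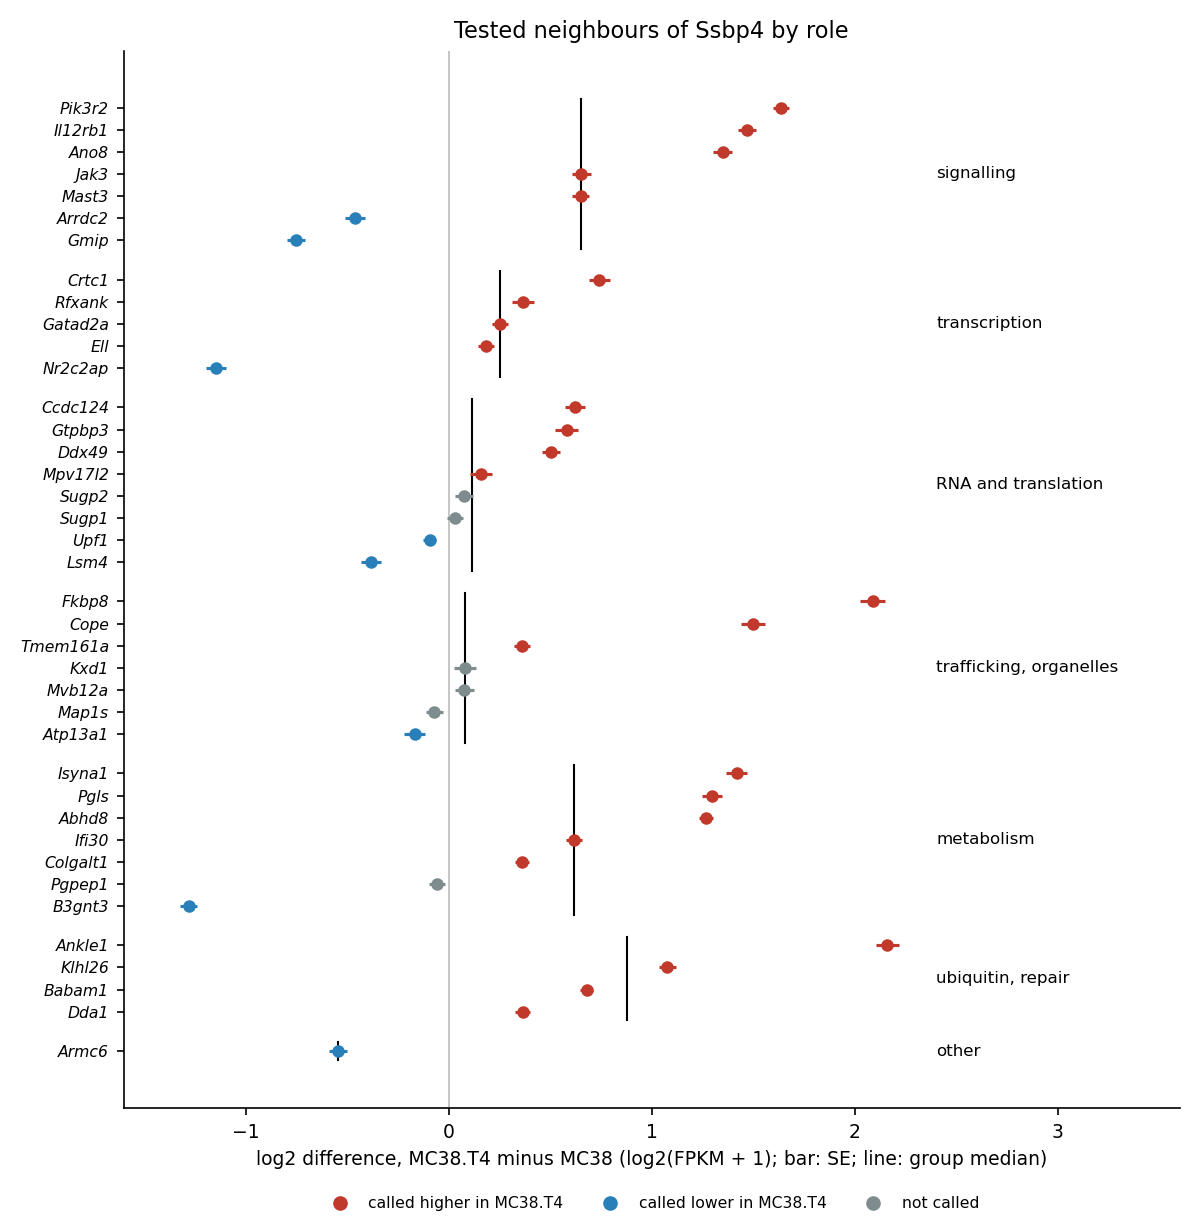
Log2 difference, MC38.T4 minus MC38 (log2(FPKM + 1), bar: SE), of the 39 tested genes grouped by role, with the median of each role as a vertical line. Every role with more than 4 tested genes holds genes on both sides of 0; the 4 ubiquitin and repair genes all lie above it.

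Among receptors, kinases and other signalling genes, 5 of the 7 tested were called higher and 2 lower (median log2 difference 0.65). Of all tested genes 43.1% were called higher and 42.9% lower. Without Il12rb1 and Jak3, which passed the filter through MC38.T4 alone, 3 of 5 were called higher and 2 lower (median 0.65). Pik3r2, the p85 beta regulatory subunit of PI3-kinase, stood at 46.6, 43.3, 44.3, 44.6 and 46.7 FPKM in MC38.T4, against 12.7, 14.1, 13.8, 14.0 and 14.6 FPKM in MC38. The groups were far apart, with a 3.26-fold difference of the means (log2 difference 1.64, SE 0.04). Il12rb1, the receptor subunit shared by IL-12 and IL-23, stood at 2.08, 2.31, 2.11, 2.20 and 1.94 FPKM in MC38.T4, against 0.126, 0.121, 0.131, 0.125 and 0.148 FPKM in MC38 (log2 difference 1.47, SE 0.04). With so low a level in MC38 the log2 difference depends on the pseudocount, and was 3.27 with a pseudocount of 0.1. Jak3, the kinase of the common gamma chain receptors, averaged 1.45 ± 0.044 FPKM in MC38.T4 and 0.557 ± 0.075 FPKM in MC38 (SD, n = 5 each). Both genes are known mainly from lymphocytes, and the summed FPKM of the 15 leukocyte markers was 3.18 to 3.91 in MC38.T4, against 3.84 to 4.99 in MC38, most of it Cd14, with Ptprc at most 0.042 FPKM in any library.

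The other signalling genes went both ways. Ano8, an anoctamin family member, averaged 5.23 ± 0.15 FPKM in MC38.T4 and 1.45 ± 0.12 FPKM in MC38 (log2 difference 1.35, SE 0.05), and the kinase gene Mast3 averaged 13.4 ± 0.53 and 8.16 ± 0.43 FPKM in MC38.T4 and MC38 (SD, n = 5 each). Gmip stood at 4.21, 4.13, 3.88, 4.46 and 4.38 FPKM in MC38.T4, against 7.94, 7.60, 7.98, 7.31 and 8.01 FPKM in MC38. Its groups did not overlap (log2 difference -0.75, SE 0.04), and neither did those of the arrestin-domain gene Arrdc2, at 2.94, 2.93, 2.50, 3.09 and 2.84 FPKM in MC38.T4, against 4.11, 4.34, 4.53, 4.23 and 4.34 FPKM in MC38 (log2 difference -0.46, SE 0.05).

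Of the 5 tested genes of transcription, 4, Ell among them, were called higher and 1 lower (median log2 difference 0.25). The shares of all tested genes were 43.1% higher and 42.9% lower. Crtc1, a coactivator of CREB, averaged 3.99 ± 0.251 FPKM in MC38.T4 and 1.98 ± 0.175 FPKM in MC38. Gatad2a, a subunit of the NuRD chromatin remodelling complex, averaged 34.7 ± 1.19 FPKM in MC38.T4 and 29.0 ± 1.55 FPKM in MC38 (SD, n = 5 each). Nr2c2ap, whose product binds the nuclear receptor NR2C2, stood at 15.8, 16.3, 14.9, 14.2 and 16.6 FPKM in MC38.T4, against 32.1, 37.1, 36.4, 36.3 and 36.3 FPKM in MC38. It was lower in every MC38.T4 library, by 2.29-fold in the means (log2 difference -1.15, SE 0.05).

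Genes of RNA processing and translation had small differences, with log2 differences between -0.38 and 0.62 and a median of 0.12. Of 8 tested, 4 were called higher, 2 lower and 2 not called, beside 43.1% higher and 42.9% lower of all tested genes. Ccdc124, a factor of dormant ribosomes, averaged 34.7 ± 2.2 FPKM in MC38.T4 and 22.2 ± 1.3 FPKM in MC38. Gtpbp3, which modifies mitochondrial tRNA, averaged 5.30 ± 0.18 FPKM in MC38.T4 and 3.22 ± 0.36 FPKM in MC38. Upf1, the helicase of nonsense-mediated mRNA decay, was called lower at 26.9 ± 0.69 FPKM in MC38.T4 and 28.8 ± 0.73 FPKM in MC38 (SD, n = 5 each), a log2 difference of -0.09. The splicing factor genes Sugp1 (log2 difference 0.03, SE 0.04) and Sugp2 (0.07, SE 0.04) were not called, and the sign of Sugp1 turned after rescaling to TPM (-0.013).

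Genes of trafficking and organelles held the largest difference near Ssbp4 and 3 of the 6 genes that were not called. Cope, the epsilon subunit of the COPI coat, stood at 45.2, 42.6, 41.8, 46.8 and 44.4 FPKM in MC38.T4, against 12.7, 16.8, 15.3, 14.9 and 15.5 FPKM in MC38. The lines did not overlap, with a 2.94-fold difference of the means (log2 difference 1.50, SE 0.06). With Fkbp8 and Tmem161a (log2 difference 0.36, SE 0.04) it made 3 of the 7 tested genes that were called higher, over a median log2 difference of 0.08. The share called higher over all tested genes was 43.1%. The ESCRT-I gene Mvb12a (29.2 ± 1.2 FPKM in MC38.T4 and 27.7 ± 2.0 FPKM in MC38), the microtubule-associated gene Map1s (14.7 ± 0.51 and 15.5 ± 0.94 FPKM in MC38.T4 and MC38, SD, n = 5 each) and Kxd1 were not called. Atp13a1, a P-type ATPase of the endoplasmic reticulum, was called lower although its groups overlapped (log2 difference -0.17, SE 0.05).

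Of the 7 tested enzymes of metabolism and glycosylation, 5 were called higher and 1 lower (median log2 difference 0.62). Among all tested genes 43.1% were called higher and 42.9% lower. Ifi30, a lysosomal thiol reductase, averaged 32.5 ± 1.5 FPKM in MC38.T4 and 20.8 ± 0.92 FPKM in MC38 (SD, n = 5 each). Pgls, the lactonase of the pentose phosphate pathway, averaged 49.1 ± 2.8 FPKM in MC38.T4 and 19.4 ± 1.3 FPKM in MC38 (log2 difference 1.30, SE 0.05). Abhd8, a hydrolase-fold gene, averaged 30.0 ± 0.91 FPKM in MC38.T4 and 11.9 ± 0.44 FPKM in MC38 (log2 difference 1.27, SE 0.04), and Colgalt1, which adds galactose to collagen, averaged 66.4 ± 1.9 and 51.5 ± 1.7 FPKM in MC38.T4 and MC38 (SD, n = 5 each). B3gnt3, a glycosyltransferase that extends O-glycans, had the largest difference downwards. It stood at 3.30, 3.27, 3.62, 3.52 and 3.23 FPKM in MC38.T4, against 9.47, 9.34, 10.0, 9.23 and 10.2 FPKM in MC38, 2.85-fold lower in the means (log2 difference -1.28, SE 0.04).

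All 4 genes of ubiquitin ligases and DNA repair were called higher in MC38.T4, where 43.1% of all tested genes were (median log2 difference 0.88). With so few genes, grouped with results known, this count is a description only. Without Ankle1, which passed the filter through MC38.T4 alone, these were 3 of 3 with a median of 0.68. Ankle1, an endonuclease gene, had the largest log2 difference of the list, 2.16 (SE 0.06), or 4.31 with a pseudocount of 0.1. It stood at 4.03, 3.89, 4.31, 3.57 and 4.13 FPKM in MC38.T4, against 0.127, 0.0259, 0.138, 0.0696 and 0.225 FPKM in MC38, levels too low in MC38 for a firm fold. Klhl26, a Kelch-repeat gene, averaged 9.13 ± 0.29 FPKM in MC38.T4 and 3.81 ± 0.20 FPKM in MC38 (log2 difference 1.08, SE 0.04). Babam1, a subunit of the BRCA1-A complex, averaged 42.1 ± 1.2 FPKM in MC38.T4 and 25.9 ± 0.58 FPKM in MC38, and Dda1, a partner of the CUL4 ubiquitin ligase, 34.0 ± 1.1 and 26.2 ± 1.1 FPKM in MC38.T4 and MC38 (SD, n = 5 each). Armc6, which stands outside these roles, was lower at 5.71, 5.23, 5.19, 4.69 and 5.54 FPKM in MC38.T4, against 8.10, 8.30, 8.13, 8.29 and 7.86 FPKM in MC38 (log2 difference -0.54, SE 0.05).

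**Figure D5:**
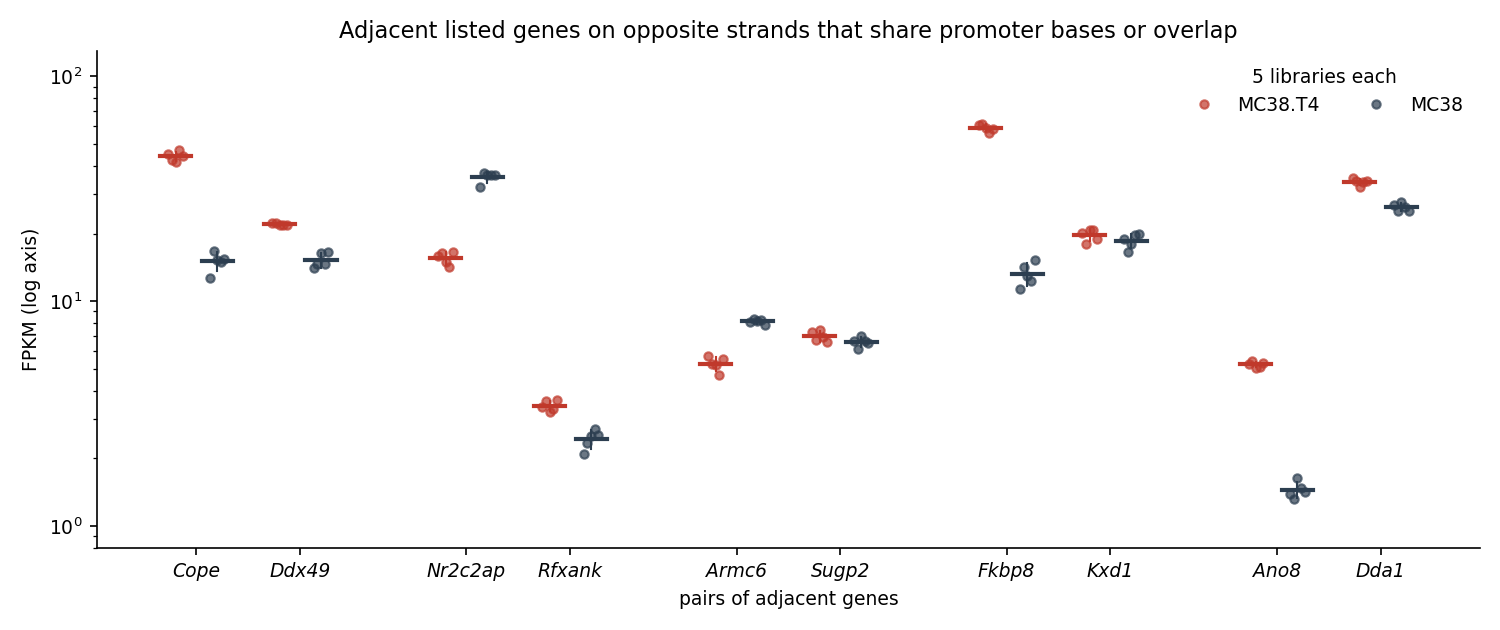
FPKM on a log axis in each library (points; MC38.T4 left, MC38 right for each gene), with mean (bar) and SD (line) of 5 libraries, for 5 pairs of adjacent listed genes on opposite strands. Cope and Ddx49 are both higher in MC38.T4 by unequal amounts, Nr2c2ap and Rfxank differ in opposite directions, and Fkbp8 differs while Kxd1 does not.

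Adjacent genes that share DNA often differed unequally between the lines. Adjacent genes that share no DNA were not compared with them. Cope and Ddx49, an RNA helicase gene, are transcribed away from each other, and their windows above share 205 bases, including the cAMP response element, which is the same site read from both strands. Cope was 2.94-fold higher in MC38.T4, while Ddx49 stood at 22.2, 22.2, 21.9, 21.9 and 21.8 FPKM in MC38.T4, against 14.1, 14.6, 16.4, 14.6 and 16.6 FPKM in MC38, a 1.44-fold difference. Pik3r2 shares 249 bases of its window with the long noncoding RNA gene 2010320M18Rik, which was called lower (log2 difference -0.26), against 1.64 for Pik3r2. The windows of Sugp1 and Mau2 share 152 bases, and there Mau2 was called higher (log2 difference 0.41) and Sugp1 was not called. Those of Rfxank and Borcs8 share 199 bases, and both genes were called higher (log2 differences 0.37 and 1.41).

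The 4 pairs of listed genes that overlap on opposite strands in GENCODE M21 also differed unequally. Nr2c2ap and Rfxank, a subunit of the RFX complex that drives MHC class II genes, overlap by 2417 bases. Rfxank stood at 3.38, 3.59, 3.22, 3.32 and 3.63 FPKM in MC38.T4, against 2.09, 2.35, 2.50, 2.69 and 2.53 FPKM in MC38, so that it was higher where Nr2c2ap was lower. Fkbp8 and Kxd1 overlap by 233 bases, Armc6 and Sugp2 by 241, and Ano8 and Dda1 by 80. The libraries mark strand, but whether strand was used in counting is not given in the sources used here, so reads in these overlaps may have been assigned to either gene. Overlaps with genes outside the list reach 1819 bases on the opposite strand (Gtpbp3 and Plvap) and 8379 bases on the same strand (Yjefn3 and Ndufa13). Kxd1, Mef2b, Jak3 and Pgls also overlap another gene on their own strand, so the values of all these genes are uncertain to that extent.

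The other 10 listed genes lay below the filter: Lpar2, Pbx4, Cilp2, Yjefn3, Mef2b, Tmem59l, Lrrc25, Pde4c, Kcnn1 and Fcho1. In the fit with no filter Yjefn3 (0.664 ± 0.22 FPKM in MC38.T4 and 0.236 ± 0.082 FPKM in MC38) and the potassium channel gene Kcnn1 (0.411 ± 0.11 and 0.186 ± 0.053 FPKM in MC38.T4 and MC38) were called higher. The lysophosphatidic acid receptor gene Lpar2 was called lower, at 0.139, 0.135, 0.181, 0.110 and 0.156 FPKM in MC38.T4, against 0.442, 0.429, 0.476, 0.421 and 0.447 FPKM in MC38. The homeobox gene Pbx4, the cartilage matrix gene Cilp2, the MADS-box gene Mef2b and the endocytosis gene Fcho1 stood at or under 0.249 FPKM in every library.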

How the data were processed

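RNA of cultured cells was sequenced as polyA-selected, stranded TruSeq libraries, per the labels' protocols, 5 of MC38.T4 and 5 of MC38. The authors deposited 1 table of FPKM (fragments per kilobase of gene, scaled to library size), with 1 column per library and no column left unused. The submitters' processing notes name the build GRCm39 and DESeq2, with no role; which aligner, counting program and annotation were used is not given in the sources used here. FPKM holds no counts, so no counting interval can be given. The steps of low values put relative depths between 0.874 and 1.14. FPKM sums lay between 478000 and 484500 in MC38.T4 and between 442200 and 477000 in MC38. The lowest sum was that of MC38 replicate 1. FPKM is relative to the library total, so genes that take a larger share lower the others.

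Differences are MC38.T4 minus MC38 on log2(FPKM + 1), a scale on which low genes change less than they do in FPKM. They were fitted with limma 3.58.1 in R 4.3.3 (trend and robust moderation, group term only) over the 11110 genes that reached 1 FPKM in 5 or more libraries; p-values were adjusted over them by Benjamini-Hochberg and called under 0.05; the code was tested on simulated data. Other steps used SciPy 1.17.1 and pandas 2.3.3 under Python 3.11.15. The listed genes, their role groups and the tests were chosen with earlier results of these data known. Genes given in full are Ssbp4, the 5 listed genes next to it on each side, the 6 largest differences each way, up to 5 genes not called, and up to 3 unlisted genes each way; the means of other listed genes were added after their values were seen.

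Gene order, promoter windows and strands came from RefSeq tables of GRCm38.p6 and overlaps from GENCODE M21, both of another build than the authors', so no coordinates are given; all 49 symbols matched and 43 had a promoter window. Where a gene had several windows the table's first was used. Motifs were searched on both strands. The alternatives tried were quantile normalization, equal medians, TPM scaling, a pseudocount of 0.1, a stricter minimum (5 FPKM) and none, plain eBayes, the replicate number as a block, each library left out in turn and, added after seeing the data, places in the order of the list.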

Additional observations from a re-analysis of the deposited data

Results flagged for a closer look

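An outlier check covered 58 groups of 5 libraries, those of each line for the genes given in full, without groups at 0 throughout. In 5 of them a library had a gap to the nearest other library that was large beside the range of its group. For normally distributed values chance flags about 1 group in 20. Lsm4 stood at 62.5 FPKM in MC38.T4 replicate 4, against 72.2 to 75.8 FPKM in the other MC38.T4 libraries. Nr2c2ap stood at 32.1 FPKM in MC38 replicate 1, against 36.3 to 37.1 FPKM in the other MC38 libraries. The others were genes listed at 0 in the rest of their group: Tmem59l at 0.0501 FPKM in MC38.T4 replicate 3, Lrrc25 at 0.0156 FPKM in MC38.T4 replicate 4 and Pde4c at 0.0089 FPKM in MC38 replicate 2. With 1 value above 0 such a group is flagged by construction, so the chance rate does not apply to it.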

How the results depend on the processing

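The count of listed genes called higher in MC38.T4 stayed within 20 to 27 and the count called lower within 7 to 9 over 18 alternatives, with 20 and 7 of 32 tested genes at a minimum FPKM of 5 and 27 and 9 of 49 with no filter. Leaving out each library in turn gave 25 and 8 every time, a median log2 difference between 0.35 and 0.38, and a Spearman correlation with place between -0.199 and -0.171. With no filter the median log2 difference fell to 0.25, over all 49 genes, and the values at or near 0 of the added genes lower it by construction. The Spearman correlation with place, -0.191 as reported, was -0.293 at a minimum FPKM of 5, -0.159 with a pseudocount of 0.1, -0.171 after rescaling to TPM and -0.069 with places in the order of the list; the cause was not tested for the pseudocount and TPM. With a pseudocount of 0.1 the log2 differences of Il12rb1, Ankle1 and Hapln4 were 3.27, 4.31 and 2.74, since low levels weigh more on that scale. Of other single genes, Sugp1 turned to -0.013 after rescaling to TPM, Map1s was called lower after rescaling to TPM and with equal medians, and Pgpep1 with quantile normalization. With the replicate number as a block the counts were 25 and 8 and the median 0.36. Same-numbered libraries of the lines had correlations of deviations from -0.129 to 0.142. No pairing by number was seen in these values, which cannot show that none exists. Depth in reads is not given by FPKM, so the precision of the 10 genes below the filter is unknown.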
